A study of Mus musculus with 18 samples.

Results

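The 69 genes described here encode the heat shock proteins, the DnaJ co-chaperones and heat shock factor 2 of the mouse. They were chosen by symbol alone, from the Hspa, Hspb, Hsp90, Hspd1, Hspe1, Hsph1, Hsf and Dnaja, Dnajb and Dnajc names, without Hspa5 and Dnajb9, and are 69 of the 19938 genes measured by an array feature with 1 gene symbol. By family they are 12 members of the HSP70 and HSP110 family, 2 of the HSP90 family, the pair Hspd1 and Hspe1, 8 small heat shock proteins, Hsf2, and 4, 12 and 28 DnaJ proteins of classes A, B and C. Hsf1, Hsp90ab1 and Hspa1b were not analysed here.

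The cells were alveolar type II cells, the surfactant-making epithelial cells of the lung, isolated from mice 7 to 8 weeks old. All mice carried floxed Cebpa alleles: the Cebpa-deleted mice, whose cells and arrays are also called deleted below, were CCSP/rtTA/CEBPa(flx/flx), and the controls were CEBP/a(flx/flx) littermates without rtTA or without Cre. Cebpa, the gene of the transcription factor C/EBPα, was removed in Clara cells first, in early gestation, and in type II cells near term, so the deletion is not limited to the cells that were arrayed. CCSP names the Clara cell secretory protein gene, whose promoter gives such a transgene its name. Cells were taken at 0, 2 and 24 h of hyperoxia according to the series design, while the description of each sample states air. Each of the 6 groups of genotype and time holds 3 arrays, 18 in all, and no label states that the 3 came from separate animals, so a p-value here reflects only how these samples spread, which may be technical.

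Heat shock proteins are chaperones: they bind unfolded proteins, keep them from clumping and help them to fold. HSP70 proteins do this in cycles of ATP use that DnaJ proteins start and nucleotide exchange factors end, HSP90 proteins finish the folding of kinases and steroid receptors, HSP60 with HSP10 forms a folding chamber in mitochondria, and small heat shock proteins hold unfolded proteins without ATP. Heat shock factor 1 raises many of these genes during heat, oxidant and other proteotoxic stress by binding heat shock elements, which are inverted repeats of GAA. Hyperoxia exposes type II cells to oxidants, and these cells also fold large amounts of surfactant protein in the endoplasmic reticulum.

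Heat shock elements were looked for in the 250 bases before the transcription starts that RefSeq gives on GRCm38.p6, where 56 of the 69 genes matched by symbol. The sequences below are shown because they carry the letters by which heat shock factors are known to bind, in genes whose levels are given further on. Each is written 5′ to 3′ on the strand of its gene, and capitals mark matches to GAANNTTC or TTCNNGAA, the 2 ways in which a pair of units can face. The stretches are Hspa1a at chr17:34972241-34972272 on the minus strand, Hspb1 at chr5:135887790-135887841 on the plus strand, Dnaja1 at chr4:40722332-40722363 on the plus strand, Hsph1 at chr5:149636350-149636381 on the minus strand, and Hspd1 and Hspe1 at chr1:55088047-55088088, read on the minus and the plus strand.
Hspa1a: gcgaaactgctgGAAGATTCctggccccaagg
Hspb1: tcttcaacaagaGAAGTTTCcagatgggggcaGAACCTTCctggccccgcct
Dnaja1: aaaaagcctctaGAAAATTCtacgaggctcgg
Hsph1: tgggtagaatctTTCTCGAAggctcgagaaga
Hspd1: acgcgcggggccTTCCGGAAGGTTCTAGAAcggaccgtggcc
Hspe1: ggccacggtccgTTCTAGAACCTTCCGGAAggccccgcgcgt

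The last 2 sequences are the same DNA read on opposite strands. Hspd1 and Hspe1 are transcribed away from each other, with 215 bases between their first transcribed bases, and the run of units in capitals lies between them. A match to 3 units in a row, GAANNTTCNNGAA on either strand, was found in 3 of the 56 genes (5.36%), which were Dnajb6, Hspd1 and Hspe1, against 0.514% of 27025 genes in the same table. The 2-unit match GAANNTTC, which includes every 3-unit match, occurred in 10 of 56 (17.9%) against 7.73% of all genes. The other facing, TTCNNGAA, occurred in 6 of 56 (10.7%) against 8.11%, and it overlaps the first wherever 3 units follow each other. The stretch shared by Hspd1 and Hspe1 enters each of these counts of members for both genes. Such a match is a description of letters and not a binding site, and Hspb8 and Dnajb1 held none of these letters in the windows searched.

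Several features of the whole array set bear on the values. Cebpa itself, on the log2 scale used throughout, differed (deleted minus control) by -0.43 (adjusted p = 0.429) at 0 h, -1.103 (adjusted p = 0.00461) at 2 h and -1.83 (adjusted p = 8.19e-06) at 24 h, lower on all 3 deleted arrays at each time; whether its feature lies inside the deleted stretch is not stated in the labels. The interquartile range of all gene values on an array was 3.01 ± 0.03 (SD, n = 3) for control and 2.97 ± 0.09 for deleted cells at 0 h, 2.25 ± 0.13 and 2.35 ± 0.20 at 2 h, and 2.47 ± 0.04 and 1.94 ± 0.16 at 24 h. A narrower range places genes of high value lower and genes of low value higher, and the ranges did not overlap between genotypes at 24 h. The mean of 11 type II cell markers, the labelled cell type, was high on every array, and at 24 h it was 12.21 to 12.30 in controls and 11.35 to 11.72 in Cebpa-deleted cells. The mean of 12 endothelial markers was 8.10 to 8.71 and 9.03 to 9.14, that of 10 lymphocyte markers 6.34 to 7.00 and 7.25 to 7.61, and that of 9 fibroblast and smooth muscle markers 7.28 to 7.80 and 7.90 to 8.11 in the same groups. At 24 h 10 of 11 type II cell markers were lower in Cebpa-deleted cells, and 11 of 12 endothelial, 6 of 10 lymphocyte, 6 of 9 fibroblast and smooth muscle, 3 of 7 airway and 2 of 10 macrophage markers were higher, with 2 macrophage markers lower. The endothelial markers were already higher at 0 h (8 of 12) and 2 h (11 of 12). In cells isolated in bulk, fewer cells of a type and less RNA per cell cannot be told apart.

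Before hyperoxia and after 2 h, none of the 69 chaperone genes passed the test between the genotypes. At 0 h the test called 0 of 69, against 0.858% of all genes (0.677% higher, 0.181% lower), and 4 of 69 had an unadjusted p below 0.05. The members of smallest p were Dnajc22 (0.23, adjusted p = 0.429), Dnajb7 (0.25, adjusted p = 0.682) and Hspb2 (0.21, adjusted p = 0.682) on the higher side, and Hspa2 (-0.34, adjusted p = 0.245), Dnajc5g (-0.37, adjusted p = 0.363) and Dnajb3 (-0.33, adjusted p = 0.405) on the lower. Without replicate 3 of the Cebpa-deleted 0 h cells, 1 member was called, Dnajc5g at -0.60 (adjusted p = 0.0322). That fit called 46 of all 19938 genes. At 2 h the call count was again 0 of 69, against 1.4% of all genes (1.2% higher, 0.206% lower), with 6 at an unadjusted p below 0.05. The members of smallest p were Hspa12b (0.40, adjusted p = 0.329), Dnajc8 (0.29, adjusted p = 0.348) and Hspa4 (0.17, adjusted p = 0.518) on the higher side and Dnajc12 (-0.37, adjusted p = 0.207), Hspb3 (-0.27, adjusted p = 0.366) and Hspa2 (-0.27, adjusted p = 0.368) on the lower. Tests of whether the change from 0 to 2 h differed by genotype called 0 of 69, as they called 0% of all genes, and 3 members had an unadjusted p below 0.05. The smallest p there belonged to Dnajc8 (0.37, adjusted p = 0.764), Dnajc4 (0.25, adjusted p = 0.824) and Dnajb6 (0.34, adjusted p = 0.861) among positive and Hspb2 (-0.48, adjusted p = 0.647), Dnajc5b (-0.43, adjusted p = 0.739) and Dnajb7 (-0.34, adjusted p = 0.846) among negative values.

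At 24 h the genotypes separated. The inducible HSP70 gene Hspa1a, the small heat shock protein genes Hspb1 and Hspb8, the HSP40 gene Dnajb1 and the endoplasmic reticulum HSP70 gene Hspa13 were lower in the Cebpa-deleted cells by 0.72 to 1.37 on the log2 scale, the 5 largest of all differences among the 69 genes. In all, 21 members were lower and 6 higher, so 27 of 69 (39.1%) were called, against 50.7% of all genes (26.4% lower, 24.3% higher). The share of members called was thus below that of all genes. Among the 60% of genes with the highest mean values, 21 of 55 members were lower (38.2%) and 1 higher, beside 42.5% and 12.3% of all genes there; among the remaining 14 members 0 were lower and 5 higher (35.7%), beside 2.24% and 42.4% of all genes there. On arrays centred on their medians 29 members were lower and 4 higher, against 30.4% and 18.1% of all genes. The median member differed by -0.14, against 0.046 for all genes. Without Cebpa-deleted replicate 2, whose array had the narrowest range, 14 members were lower and 1 higher, beside 3551 and 2577 of all 19938 genes.

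**Figure D1:**
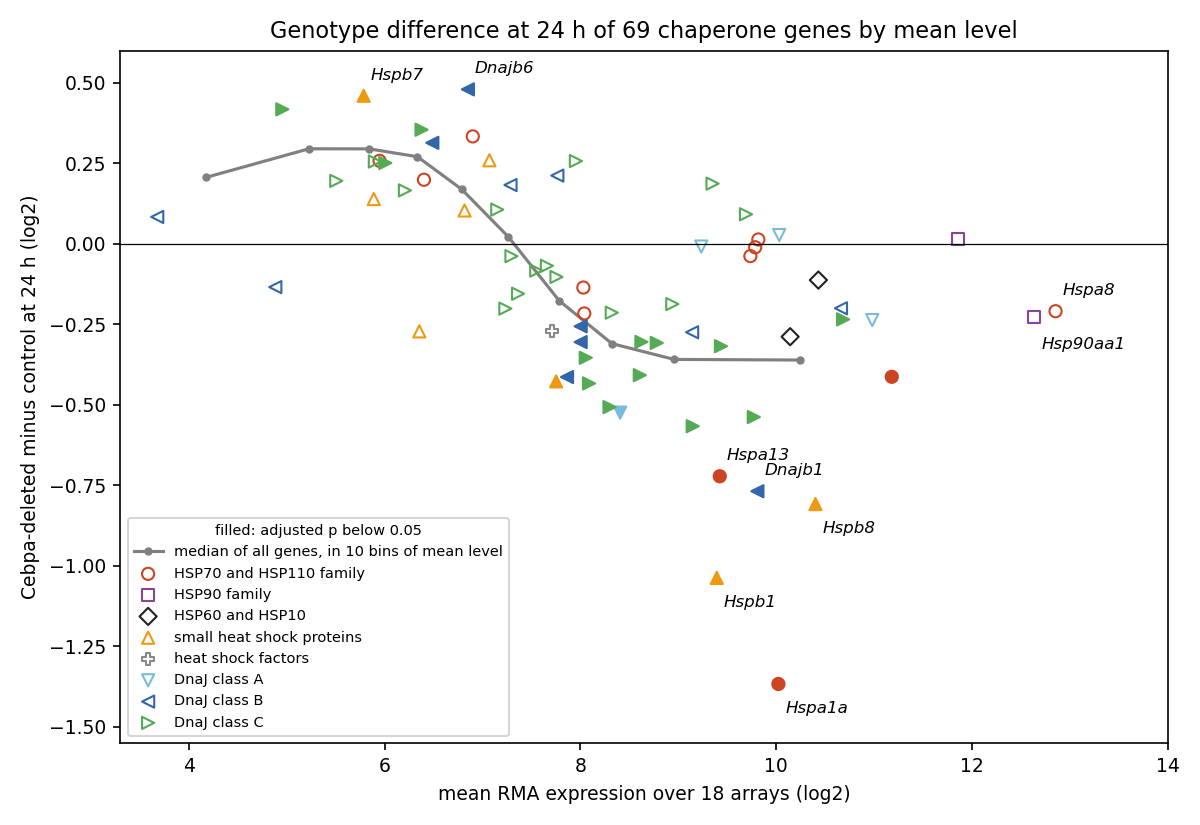
Difference between Cebpa-deleted and control cells at 24 h (vertical axis, log2) against the mean value over 18 arrays (horizontal axis, log2) for each of the 69 genes, by family, with filled symbols at an adjusted p below 0.05 and a grey line for the median of all genes in 10 bins of equal size by mean value. The line falls from 0.30 in bins 2 and 3 to -0.36 in bins 9 and 10, and Hspa1a, Hspb1, Hspb8, Dnajb1 and Hspa13 lie below it.

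The plot by mean value sets the members against genes of like value. Among the 21 members in the highest of the 10 bins, 9 were lower in the Cebpa-deleted cells, while 66% of all genes in that bin were. The median of all genes there was -0.36, so the differences of Hspa1a, Hspb1, Hspb8, Dnajb1 and Hspa13 were larger than that median and those of Hspa8, Hsp90aa1, Hspd1, Hspe1 and Hsph1 smaller. All 3 Cebpa-deleted arrays lay below all 3 control arrays for 22 members and above them for 12, beside 30.4% and 31.7% of all genes. The part of the array ranges and of the cell type markers in these differences was not tested.

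Hspa1a encodes the HSP70 that is low in resting cells and rises under stress, and it shares nearly all of its coding sequence with Hspa1b, so the 2 genes may not be separated by the array. Hspa1a read 11.03, 11.05 and 11.24 in the controls and 11.24, 11.14 and 11.09 in the deleted cells at 0 h. By 2 h, Hspa1a stood at 9.18, 9.37 and 9.53 in the controls and 9.54, 9.05 and 9.11 in the deleted cells. At 24 h Hspa1a read 11.59, 9.98 and 9.40 in the controls and 8.83, 8.68 and 9.35 in the deleted cells. All 6 values at 0 h were above all 6 at 2 h, and at 24 h the control arrays spread widely, with replicate 1 far above the other two, while the Cebpa-deleted arrays all lay below them. The 24 h means were 10.32 ± 1.13 and 8.96 ± 0.35 (SD, n = 3 each), a 2.58-fold lower level in the Cebpa-deleted cells (-1.37, SE 0.34, adjusted p = 0.00425). Without control replicate 1 the difference was -0.73 with an adjusted p of 0.0101. A feature that names Hspa1a and Hspa1b together gave -1.23 (adjusted p = 0.0167 in a fit over all features).

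Hspa8 is the constitutive HSP70 of the cytosol, which uncoats clathrin vesicles and feeds chaperone-mediated autophagy besides folding. Hspa8 had 0 h values of 13.47, 13.50 and 13.40 in controls and 13.46, 13.42 and 13.39 in deleted cells. For Hspa8, the 2 h values were 12.62, 12.57 and 12.73 in controls and 12.73, 12.64 and 12.63 in deleted cells. For Hspa8 at 24 h they were 12.75, 12.62 and 12.34 in controls and 12.36, 12.30 and 12.43 in deleted cells. Its values fell between 0 and 2 h in both genotypes, and the 24 h groups overlapped. The genotype difference at 24 h was -0.21 (adjusted p = 0.0737), with a 95% interval of -0.41 to -0.0091. Hspa8 fell from 2 to 24 h in the deleted cells (-0.30, SE 0.095, adjusted p = 0.0231), and the change in controls was -0.069 (adjusted p = 0.666).

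Hsph1 encodes an HSP110 that acts as a nucleotide exchange factor for HSP70 and is itself a stress gene. Hsph1 measured 10.06, 10.27 and 9.78 at 0 h on control arrays and 10.04, 10.06 and 9.94 on deleted arrays. After 2 h, Hsph1 measured 9.88, 9.71 and 9.90 on control arrays and 9.42, 10.08 and 9.95 on deleted arrays. After 24 h, Hsph1 measured 10.15, 9.35 and 8.65 on control arrays and 9.35, 9.21 and 9.47 on deleted arrays. The control arrays at 24 h span from above every Cebpa-deleted array to below every one, with replicate 1 highest and replicate 3 lowest, as for Hspa1a. The difference was -0.038 (adjusted p = 0.905), with a 95% interval of -0.56 to 0.48. Without control 24 h replicate 1, Hsph1 fell in controls from 2 to 24 h (-0.835, adjusted p = 0.0148), beside -0.45 (adjusted p = 0.245) with all arrays.

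Hspa13 encodes an HSP70-like protein of microsomes, the membranes of the endoplasmic reticulum. Hspa13 read 10.19, 10.11 and 10.19 in the controls and 10.02, 10.18 and 10.21 in the deleted cells at 0 h. By 2 h, Hspa13 stood at 9.37, 9.37 and 9.66 in the controls and 9.53, 9.29 and 8.99 in the deleted cells. At 24 h Hspa13 read 9.18, 9.19 and 8.96 in the controls and 8.26, 8.28 and 8.63 in the deleted cells. The Cebpa-deleted arrays at 24 h lay below every other array of the series, and the 24 h groups did not overlap. Hspa13 was 1.65-fold lower (-0.72, SE 0.13, adjusted p = 0.000611). It fell from 2 to 24 h in the Cebpa-deleted cells (-0.88, SE 0.13, adjusted p = 0.000304), and in controls the change was -0.36 (adjusted p = 0.0799).

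Hspa9 encodes mortalin, the HSP70 of the mitochondrial matrix that pulls proteins in through the import channel. Hspa9 had 0 h values of 11.30, 11.25 and 11.13 in controls and 11.20, 11.25 and 11.20 in deleted cells. For Hspa9, the 2 h values were 11.04, 10.99 and 10.98 in controls and 10.93, 11.03 and 10.96 in deleted cells. For Hspa9 at 24 h they were 11.55, 11.41 and 11.66 in controls and 11.06, 11.03 and 11.29 in deleted cells. The control arrays at 24 h were the highest of all groups. Of the Cebpa-deleted arrays at 24 h, replicate 2 lay within the 2 h range and replicates 1 and 4 above it. Hspa9 rose from 2 to 24 h in controls (0.53, SE 0.09, adjusted p = 0.000719), and the change in Cebpa-deleted cells was 0.15 (adjusted p = 0.199). The 24 h level was lower in deleted cells (-0.41, SE 0.09, adjusted p = 0.00196). The other members of the family, Hspa1l, Hspa2, Hspa4, Hspa4l, Hspa12a, Hspa12b and Hspa14, differed at 24 h by -0.22 to 0.33 with 0 calls, so 3 of the 12 members were lower and 0 higher.

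**Figure D2:**
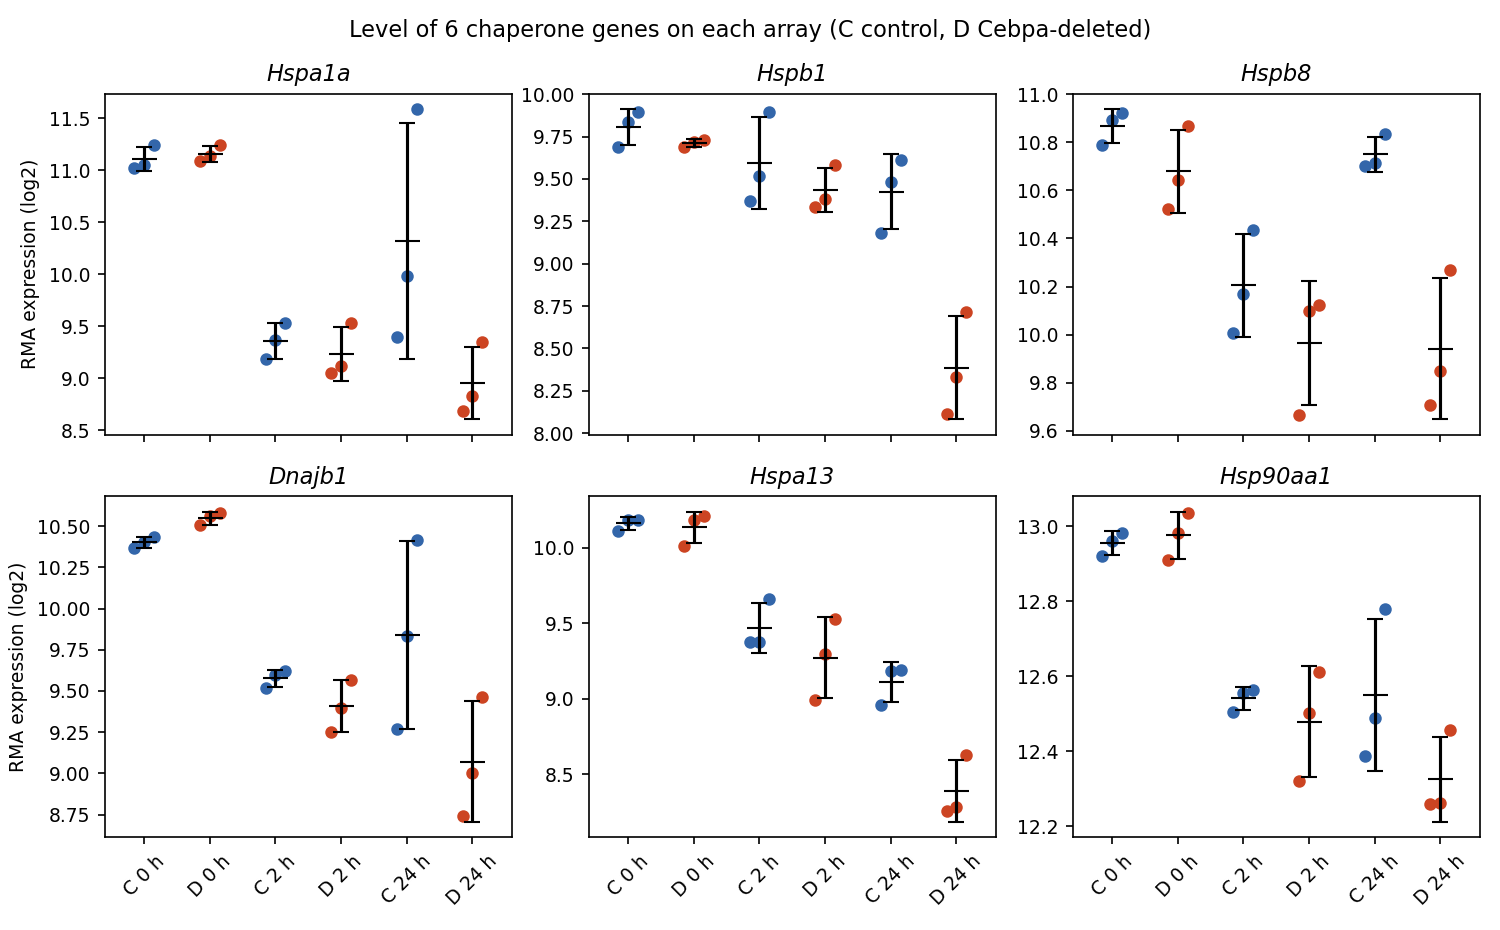
RMA expression (vertical axis, log2) of 6 chaperone genes on each of the 18 arrays, by control (C, blue) and Cebpa-deleted (D, red) cells at 0, 2 and 24 h, with bars for the mean ± SD of 3 arrays and a separate axis range in each panel. Values at 0 h are above those at 2 h in both genotypes for Hspa1a, Hspb8, Dnajb1, Hspa13 and Hsp90aa1, and the Cebpa-deleted arrays at 24 h are the lowest group for Hspb1 and Hspa13.

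Hsp90aa1 encodes the stress-responsive form of cytosolic HSP90. Hsp90aa1 measured 12.96, 12.98 and 12.92 at 0 h on control arrays and 12.98, 13.04 and 12.91 on deleted arrays. After 2 h, Hsp90aa1 measured 12.56, 12.56 and 12.50 on control arrays and 12.32, 12.61 and 12.50 on deleted arrays. After 24 h, Hsp90aa1 measured 12.78, 12.49 and 12.39 on control arrays and 12.26, 12.26 and 12.46 on deleted arrays. The genotypes overlapped at 24 h, and all 6 values at 0 h lay above all later ones. The genotype difference was -0.23 (adjusted p = 0.0725), with a 95% interval of -0.44 to -0.011. Hsp90b1 encodes GRP94, the HSP90 of the endoplasmic reticulum. Hsp90b1 read 12.43, 12.41 and 12.25 in the controls and 12.26, 12.25 and 12.18 in the deleted cells at 0 h. By 2 h, Hsp90b1 stood at 11.90, 11.90 and 11.95 in the controls and 11.88, 11.93 and 11.80 in the deleted cells. At 24 h Hsp90b1 read 11.49, 11.51 and 11.16 in the controls and 11.39, 11.40 and 11.42 in the deleted cells. Its values stepped down at each time in both genotypes, and at 24 h the genotypes overlapped (0.016, adjusted p = 0.889). Hsp90b1 fell from 2 to 24 h in controls (-0.53, SE 0.092, adjusted p = 0.000926) and in Cebpa-deleted cells (-0.47, SE 0.092, adjusted p = 0.00169). The HSP90 family thus had 0 of 2 members called by genotype at 24 h.

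Hspd1 encodes HSP60, the barrel of the mitochondrial folding chamber, and Hspe1 encodes HSP10, its lid. Hspd1 had 0 h values of 10.90, 10.87 and 10.63 in controls and 10.79, 10.82 and 10.72 in deleted cells. For Hspd1, the 2 h values were 10.40, 10.18 and 10.50 in controls and 10.27, 10.44 and 10.09 in deleted cells. For Hspd1 at 24 h they were 10.47, 10.25 and 10.02 in controls and 10.13, 10.10 and 10.17 in deleted cells. The 24 h groups overlapped (-0.11, adjusted p = 0.433). Hspe1 measured 10.80, 10.86 and 10.65 at 0 h on control arrays and 10.80, 10.68 and 10.66 on deleted arrays. After 2 h, Hspe1 measured 9.81, 9.54 and 10.11 on control arrays and 9.73, 10.05 and 9.49 on deleted arrays. After 24 h, Hspe1 measured 10.29, 10.05 and 9.79 on control arrays and 9.76, 9.70 and 9.79 on deleted arrays. Its 24 h groups overlapped as well, by a narrow margin (-0.29, adjusted p = 0.112). Both genes, whose shared promoter sequence is printed above, fell from 0 to 2 h in controls, with changes of -0.44 (SE 0.12) for Hspd1 and -0.95 (SE 0.15) for Hspe1, and in deleted cells, with -0.51 (SE 0.12) and -0.95 (SE 0.15). Neither was called from 2 to 24 h in either genotype.

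Hspb1 encodes HSP25, the mouse form of HSP27, which caps actin and holds unfolded proteins. Hspb1 read 9.90, 9.83 and 9.69 in the controls and 9.72, 9.73 and 9.69 in the deleted cells at 0 h. By 2 h, Hspb1 stood at 9.52, 9.37 and 9.89 in the controls and 9.34, 9.58 and 9.38 in the deleted cells. At 24 h Hspb1 read 9.61, 9.48 and 9.18 in the controls and 8.33, 8.12 and 8.72 in the deleted cells. Every Cebpa-deleted array at 24 h was below every other array of the series. The 24 h means were 9.42 ± 0.22 and 8.39 ± 0.30 (SD, n = 3 each), 2.05-fold lower in Cebpa-deleted cells (-1.04, SE 0.15, adjusted p = 0.000138). Hspb1 fell from 2 to 24 h in those cells (-1.05, SE 0.15, adjusted p = 0.000245), beside -0.17 (adjusted p = 0.482) in controls, and the difference between the changes passed the test (-0.88, SE 0.21, adjusted p = 0.00953). The second feature for Hspb1 gave -1.04 at 24 h as well.

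Hspb8 encodes HSP22, which works with Bag3 and HSP70 in a form of selective autophagy. Hspb8 had 0 h values of 10.92, 10.89 and 10.79 in controls and 10.64, 10.87 and 10.52 in deleted cells. For Hspb8, the 2 h values were 10.44, 10.01 and 10.17 in controls and 10.10, 10.12 and 9.67 in deleted cells. For Hspb8 at 24 h they were 10.71, 10.70 and 10.83 in controls and 9.85, 9.71 and 10.27 in deleted cells. In controls the 24 h values lay above all 2 h values and close to those at 0 h, and in Cebpa-deleted cells the 24 h and 2 h values overlapped. Hspb8 rose in controls from 2 to 24 h (0.54, SE 0.15, adjusted p = 0.0214) and had a change of -0.023 (adjusted p = 0.92) in deleted cells. Its level at 24 h was 1.75-fold lower in the Cebpa-deleted cells (-0.81, SE 0.15, adjusted p = 0.00065). The call in controls was lost without 4 of the 6 control arrays in turn, with adjusted p up to 0.104.

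Of the other small heat shock proteins, Hspb6, a muscle-rich member known as HSP20, read 7.76, 7.84 and 7.75 in controls at 24 h and 7.36, 7.25 and 7.45 in Cebpa-deleted cells, with no overlap (-0.43, SE 0.081, adjusted p = 0.000817). Hspb7, known as the cardiovascular heat shock protein, went the other way, with 5.501, 5.66 and 5.59 in controls and 6.08, 6.29 and 5.77 in Cebpa-deleted cells (0.46, SE 0.11, adjusted p = 0.00395). Hspb2, Hspb3, Hspb9 and Hspb11 differed by -0.27 to 0.26 and were not called, so the 8 small heat shock proteins had 3 lower and 1 higher.

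Hsf2, the heat shock factor that is active in development and can join Hsf1 on heat shock elements, was the heat shock factor analysed here. Hsf2 measured 8.02, 7.82 and 7.94 at 0 h on control arrays and 7.93, 8.13 and 7.89 on deleted arrays. After 2 h, Hsf2 measured 7.49, 7.66 and 7.87 on control arrays and 7.79, 7.73 and 7.53 on deleted arrays. After 24 h, Hsf2 measured 7.69, 7.64 and 7.59 on control arrays and 7.33, 7.14 and 7.64 on deleted arrays. The Cebpa-deleted 24 h arrays were low, but 1 of them reached the controls. The difference was -0.27 (adjusted p = 0.0732) and, on arrays centred on their medians, -0.34 with an adjusted p of 0.0454. Without Cebpa-deleted 24 h replicate 4 it was -0.40 (adjusted p = 0.0100).

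Among DnaJ proteins of class A, Dnaja1 is the main HSP40 partner of Hspa8 in the cytosol. Dnaja1 read 11.66, 11.62 and 11.47 in the controls and 11.69, 11.73 and 11.49 in the deleted cells at 0 h. By 2 h, Dnaja1 stood at 10.84, 10.72 and 10.80 in the controls and 10.61, 10.67 and 10.59 in the deleted cells. At 24 h Dnaja1 read 11.01, 10.75 and 10.48 in the controls and 10.52, 10.37 and 10.64 in the deleted cells. The 24 h groups overlapped, and values at 0 h were above all later ones (-0.24, adjusted p = 0.0924 by genotype at 24 h). Dnaja3, also called Tid1, is the DnaJ partner of mortalin in mitochondria. Dnaja3 had 0 h values of 8.65, 8.53 and 8.47 in controls and 8.49, 8.58 and 8.48 in deleted cells. For Dnaja3, the 2 h values were 8.28, 8.27 and 8.52 in controls and 8.59, 8.20 and 8.16 in deleted cells. For Dnaja3 at 24 h they were 8.72, 8.49 and 8.62 in controls and 8.12, 7.94 and 8.20 in deleted cells. The genotypes did not overlap at 24 h and Dnaja3 was lower in Cebpa-deleted cells (-0.52, SE 0.11, adjusted p = 0.00198). Dnaja2 and Dnaja4 differed by 0.027 and -0.0083, so 1 of the 4 class A genes was called.

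In class B, Dnajb1 is the HSP40 that heat shock factor 1 raises together with HSP70. Dnajb1 measured 10.41, 10.43 and 10.37 at 0 h on control arrays and 10.56, 10.58 and 10.50 on deleted arrays. After 2 h, Dnajb1 measured 9.62, 9.59 and 9.52 on control arrays and 9.57, 9.40 and 9.25 on deleted arrays. After 24 h, Dnajb1 measured 10.41, 9.83 and 9.27 on control arrays and 9.004, 8.74 and 9.47 on deleted arrays. Control replicate 1 was again highest at 24 h and replicate 3 lowest, and the genotypes overlapped by 1 array. Dnajb1 was 1.7-fold lower in Cebpa-deleted cells (-0.77, SE 0.20, adjusted p = 0.0055), and without control replicate 1 the difference was -0.48 (adjusted p = 0.0371). Dnajb11, known as ERdj3, binds unfolded proteins for BiP in the endoplasmic reticulum. Dnajb11 read 9.87, 9.78 and 9.48 in the controls and 9.41, 9.70 and 9.65 in the deleted cells at 0 h. By 2 h, Dnajb11 stood at 9.04, 9.05 and 9.29 in the controls and 9.36, 9.16 and 8.99 in the deleted cells. At 24 h Dnajb11 read 8.72, 8.81 and 8.76 in the controls and 8.50, 8.34 and 8.62 in the deleted cells. At 24 h all Cebpa-deleted values were below the controls, by -0.27 (adjusted p = 0.0673). Dnajb11 fell from 2 to 24 h in the Cebpa-deleted cells (-0.68, SE 0.12, adjusted p = 0.000895), and its change in controls was -0.36 (adjusted p = 0.0583).

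Dnajb13 belongs to the sperm flagella and motile cilia and was the class B gene that fell in controls from 2 to 24 h (-0.49, SE 0.15, adjusted p = 0.035). Dnajb13 had 0 h values of 7.71, 7.53 and 7.84 in controls and 7.90, 7.61 and 7.64 in deleted cells. For Dnajb13, the 2 h values were 8.09, 8.05 and 7.88 in controls and 7.56, 8.13 and 8.06 in deleted cells. For Dnajb13 at 24 h they were 7.64, 7.34 and 7.58 in controls and 7.65, 7.58 and 7.96 in deleted cells. The 2 h control values were the highest control values and the genotypes overlapped at each time. Dnajb6, which holds back protein aggregates, and Dnajb8, a testis form close to it, were higher in Cebpa-deleted cells at 24 h, with 0.48, SE 0.15, adjusted p = 0.0142 and 0.31, SE 0.10, adjusted p = 0.0154. In their bins by mean value 34% and 45% of all genes were higher. The 4 features that Dnajb6 shares with Gm4247 were not called, as given further on. Besides Dnajb1, the class B genes Dnajb2, Dnajb12 and Dnajb14 were lower, by 0.30, 0.26 and 0.41 on the log2 scale, which makes 4 lower and 2 higher of 12.

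In class C, Dnajc3 is P58IPK, which restrains the kinase PERK and assists BiP. Dnajc3 measured 11.33, 11.32 and 11.21 at 0 h on control arrays and 11.14, 11.26 and 11.21 on deleted arrays. After 2 h, Dnajc3 measured 10.55, 10.58 and 10.72 on control arrays and 10.80, 10.70 and 10.47 on deleted arrays. After 24 h, Dnajc3 measured 10.28, 10.27 and 10.30 on control arrays and 9.97, 10.002 and 10.18 on deleted arrays. Values fell at each step in both genotypes, and the genotypes did not overlap at 24 h (-0.23, SE 0.093, adjusted p = 0.0441), though the difference was 0.13 and not called after a second quantile normalization. Dnajc3 fell from 2 to 24 h in controls (-0.33, SE 0.093, adjusted p = 0.0249) and in Cebpa-deleted cells (-0.61, SE 0.093, adjusted p = 0.000358). Dnajc10, or ERdj5, reduces disulfide bonds in proteins sent for degradation. Dnajc10 read 10.22, 10.17 and 10.18 in the controls and 10.10, 10.15 and 10.14 in the deleted cells at 0 h. By 2 h, Dnajc10 stood at 9.46, 9.43 and 9.82 in the controls and 9.68, 9.69 and 9.67 in the deleted cells. At 24 h Dnajc10 read 9.84, 9.70 and 9.85 in the controls and 9.18, 9.02 and 9.58 in the deleted cells. All Cebpa-deleted 24 h arrays lay below the control ones (-0.54, SE 0.12, adjusted p = 0.00232), and Dnajc10 fell from 2 to 24 h in Cebpa-deleted cells (-0.42, SE 0.12, adjusted p = 0.0146).

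Dnajc1, or ERdj1, spans the membrane of the endoplasmic reticulum near ribosomes. Dnajc1 had 0 h values of 8.48, 8.40 and 8.44 in controls and 8.43, 8.42 and 8.31 in deleted cells. For Dnajc1, the 2 h values were 8.18, 8.27 and 8.44 in controls and 8.47, 8.31 and 8.09 in deleted cells. For Dnajc1 at 24 h they were 8.56, 8.34 and 8.42 in controls and 8.005, 7.79 and 7.998 in deleted cells. Cebpa-deleted values at 24 h were below all others (-0.51, SE 0.10, adjusted p = 0.00137). Dnajc14 helps receptors leave the endoplasmic reticulum. Dnajc14 measured 9.60, 9.63 and 9.65 at 0 h on control arrays and 9.51, 9.50 and 9.67 on deleted arrays. After 2 h, Dnajc14 measured 8.94, 9.001 and 9.35 on control arrays and 9.18, 8.95 and 8.84 on deleted arrays. After 24 h, Dnajc14 measured 9.10, 9.08 and 9.08 on control arrays and 8.59, 8.29 and 8.68 on deleted arrays. At 24 h its control values lay close together, and all Cebpa-deleted values were below them (-0.57, SE 0.12, adjusted p = 0.00152). Dnajc13, or RME-8, works on early endosomes. Dnajc13 read 9.31, 9.38 and 9.29 in the controls and 9.42, 9.28 and 9.26 in the deleted cells at 0 h. By 2 h, Dnajc13 stood at 9.28, 9.30 and 9.19 in the controls and 8.98, 9.17 and 9.22 in the deleted cells. At 24 h Dnajc13 read 9.44, 9.36 and 9.53 in the controls and 9.69, 9.66 and 9.53 in the deleted cells. Its Cebpa-deleted 24 h values were above every other array, and Dnajc13 rose from 2 to 24 h in those cells (0.51, SE 0.088, adjusted p = 0.000758), a call made by 2 of its 15 features, as shown further on.

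Dnajc5, the cysteine string protein of secretory vesicles, rose in controls from 2 to 24 h, with 9.49, 9.34 and 9.30 at 2 h and 9.92, 9.72 and 9.89 at 24 h (0.47, SE 0.085, adjusted p = 0.00143), and was lower in Cebpa-deleted cells at 24 h (-0.32, SE 0.085, adjusted p = 0.00643), with 0.028 and no call after a second quantile normalization. The class C genes Dnajc11, a mitochondrial membrane protein, Dnajc12, Dnajc30, Dnajc9, a histone chaperone, and Dnajc16 were lower in Cebpa-deleted cells by 0.30 to 0.43 on the log2 scale. Dnajc5g, Dnajc28 and Dnajc22 were higher by 0.42, 0.35 and 0.25. Class C thus had 10 lower and 3 higher of 28.

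By place in the cell, the 6 members on the endoplasmic reticulum list, Hsp90b1, Hspa13, Dnajb11, Dnajc1, Dnajc3 and Dnajc10, had 4 lower and 0 higher at 24 h. Their median was -0.39, and the list need not hold every member of that place. The 7 members on the mitochondrial list, Hspa9, Hspd1, Hspe1, Dnaja3, Dnajc11, Dnajc15 and Dnajc19, had 3 lower and 0 higher, with a median of -0.29; Dnajc30, also a mitochondrial protein, is not on that list and was lower (-0.35, adjusted p = 0.00905). The 13 members known to be raised by stress, which were Hspa1a, Hspa4l, Hspa8, Hsph1, Hsp90aa1, Hspd1, Hspe1, Hspb1, Hspb8, Dnaja1, Dnaja4, Dnajb1 and Dnajb4, had 4 lower, which were Hspa1a, Hspb1, Hspb8 and Dnajb1, and a median of -0.23. Of all genes 26.4% were lower at 24 h, and 66% of those in the highest of the 10 bins, beside 66.7%, 42.9% and 30.8% of the 3 groups in the order given. The medians compare with -0.36 for all genes in that bin and 0.046 for all genes. Not all of these members lie in it: Dnajb11, Dnajc1, Dnaja3, Dnajc11, Dnajc15, Dnajc19 and Dnaja4 are in bins 6 to 9. In those bins 19.7% to 66.4% of all genes were lower.

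Between 2 and 24 h, both points within hyperoxia, 11 chaperone genes were called in controls and 19 in Cebpa-deleted cells, an order that turned with the fit. Fits to only the arrays of the groups compared called 13 in controls and 7 in Cebpa-deleted cells, beside 17.2% and 9.18% of all genes. With each array's range as a covariate the counts were 13 and 0, beside 14% and 0.577% of all genes, and after a second quantile normalization they were 13 and 12. In controls 3 members rose and 8 fell, so 11 of 69 (15.9%) were called, against 12.4% of all genes (7.97% higher, 4.46% lower). The quantile normalization gave 3 rises and 10 falls there, against 8.02% and 5.74% of all genes, and centring arrays on their medians gave 3 rises and 5 falls, against 8.03% and 3.58%. Leaving out any single control array left 6 to 8 calls, beside 1398 to 2143 of all 19938 genes. The rises were Hspb8, Hspa9 and Dnajc5, described above. Beside Hsp90b1, Dnajb13 and Dnajc3, the falls were Dnajc5b (-0.48, SE 0.13), Dnajc28 (-0.48, SE 0.12), Dnaja4 (-0.47, SE 0.098), Dnajc12 (-0.44, SE 0.13) and Dnajc7 (-0.24, SE 0.076). The largest single change was that of Hspa1a, 0.96, which was not called (adjusted p = 0.0708) with all arrays and was 1.43 without control 24 h replicate 3 (adjusted p = 0.00747).

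In Cebpa-deleted cells 2 members rose and 17 fell from 2 to 24 h, 19 of 69 (27.5%), against 31.4% of all genes (11.8% higher, 19.6% lower). After the second quantile normalization the falls no longer outnumbered the rises, with 6 each, against 13.1% of all genes each way. The count was 11, 12 and 8 without Cebpa-deleted 2 h replicate 2, 24 h replicate 1 and 24 h replicate 2. It was 29 without 24 h replicate 4. Of all 19938 genes, 3111, 3538, 2922 and 7922 were called in those fits, in the same order. With all arrays, the share of members called was not above that of all genes. All 6 members on the endoplasmic reticulum list fell, with a median of -0.54. Of these, Hspa13, Dnajb11 and Dnajc3 kept the call after the quantile normalization. In controls 2 of the 6 fell, with a median of -0.35. Of all genes in the highest of the 10 bins by mean value, 52.5% fell over this interval in Cebpa-deleted cells and 4.91% in controls. Dnajb11 and Dnajc1 are in bins 9 and 8, where 50% and 42.6% fell in Cebpa-deleted cells and 3.06% and 2.91% in controls. Dnajc12 (-0.48, SE 0.13) and Dnajc30 (-0.47, SE 0.10) were further falls, Dnajc14, Dnajc16, Dnaja4, Dnajc8, Dnajc9, Hspa8, Hspa14 and Hspa4 fell by 0.26 to 0.47, and Hspb2 rose beside Dnajc13 (0.35, SE 0.13, adjusted p = 0.0411). Of the 13 stress-raised members 3 fell in Cebpa-deleted cells, and in controls 1 rose and 1 fell. The 7 members on the mitochondrial list had 0 called in Cebpa-deleted cells and 1 rise in controls, while Dnajc30, a mitochondrial protein too but not on that list, was among the falls in Cebpa-deleted cells. Over the same interval the array ranges went from 2.35 ± 0.20 to 1.94 ± 0.16 in Cebpa-deleted cells, and 10 of 11 type II cell markers fell there, beside 0 of 11 in controls; their part in these changes was not tested.

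**Figure D3:**
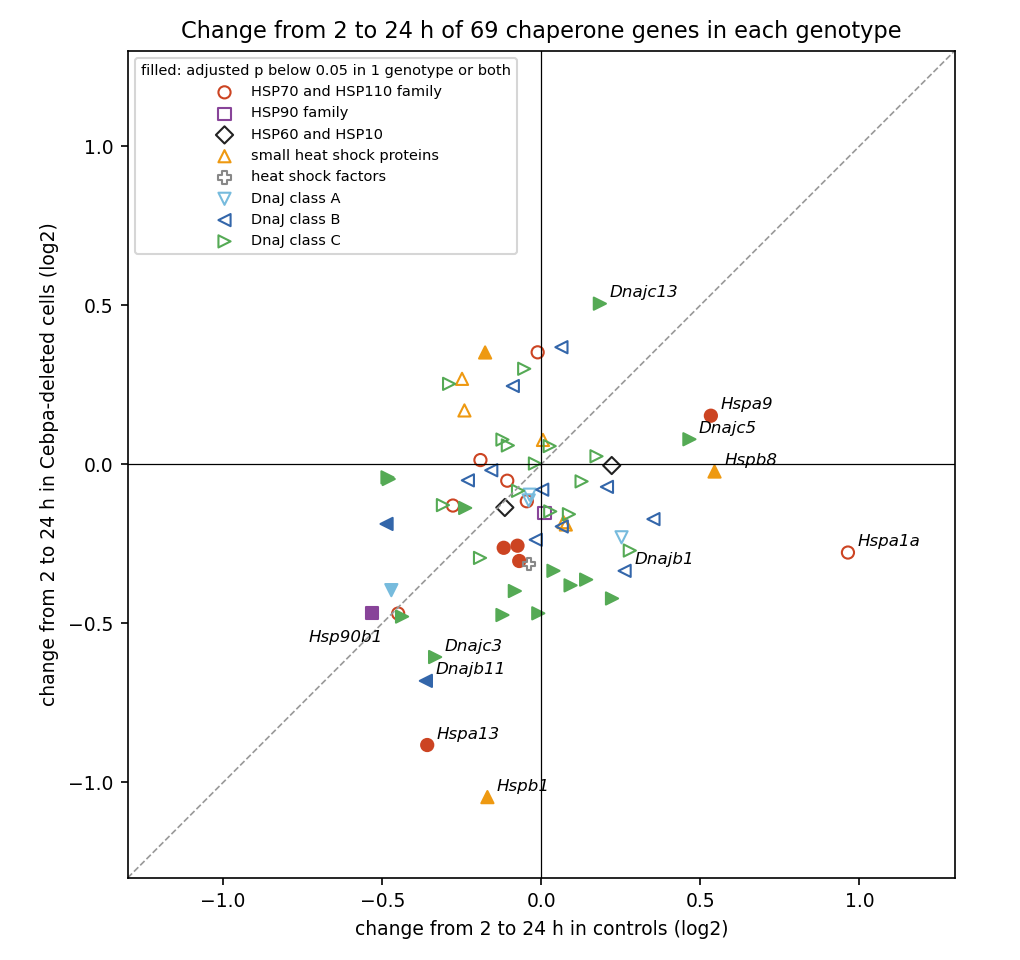
Change from 2 to 24 h in controls (horizontal axis, log2) and in Cebpa-deleted cells (vertical axis, log2) for each of the 69 genes, by family, with filled symbols at an adjusted p below 0.05 in 1 genotype or both and a dashed line of equal change. Hspb8, Hspa9, Dnajc5 and Hspa1a lie to the right of the line, and Hspb1 and Hspa13 lie below it.

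The change from 2 to 24 h was compared between the genotypes by an interaction, the difference between the changes. It called 15 of 69 members, against 30.8% of all genes (16.5% negative, 14.3% positive), with 12 more negative and 3 more positive in Cebpa-deleted cells. This balance turned after the second quantile normalization, where 0 were negative and 4 positive, against 6.08% and 6.94% of all genes; none of the 12 negative calls was kept, and Hspb2 was the positive one kept. On the deposited values the negative ones were Hspb1 (-0.88) and Hspb8 (-0.57) of the small heat shock proteins, Hspa13 (-0.52), Dnajc10 (-0.64) and Dnajc1 (-0.50) of the endoplasmic reticulum, Hspa9 (-0.38), Dnaja3 (-0.48) and Dnajc11 (-0.55) of mitochondria, and Dnajb14, Dnajc14, Dnajc5 and Dnajc8. The positive ones were Hspb2, Hspb7 and Dnajc5g. Leaving out single arrays gave 2 to 28 calls, fewest without Cebpa-deleted 24 h replicate 2 and most without replicate 4. Of all 19938 genes, 2563 were called without replicate 2 and 8383 without replicate 4. Hspb1 and Dnajc10 were called in all 12 fits without 1 array. By genotype, 4 members fell in both, 4 fell in controls only by the call and 13 fell in Cebpa-deleted cells only by the call. By the call, 3 rose in controls only, 2 rose in Cebpa-deleted cells only, and 43 were called in neither. This crossing was not counted over all genes. Of all genes, 4.46% fell and 7.97% rose in controls, and 19.6% fell and 11.8% rose in Cebpa-deleted cells. Hspa1a, with -1.24, was not called (adjusted p = 0.0566).

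Between 0 and 2 h most chaperone genes were lower at the later time in both genotypes, and so were most genes of high value on these arrays. In controls 38 members fell and 7 rose, 45 of 69, against 70.1% of all genes (39.4% lower, 30.7% higher). The largest falls were those of Hspa1a (-1.75, SE 0.34), the testis-rich HSP70 gene Hspa2 (-1.02, SE 0.12), Hspe1 (-0.95, SE 0.15), the mitochondrial import gene Dnajc19 (-0.89, SE 0.095), Dnajc15 (-0.83, SE 0.12) and Dnajb1 (-0.82, SE 0.20). Dnajb8 (0.99, SE 0.10), Dnajc5b (0.80, SE 0.13) and Dnajb7 (0.56, SE 0.14) rose most, and Dnajc27, Dnajc22 and Dnajb5 rose by 0.24 to 0.33. Apart from Dnajb5, these lie outside the 60% of genes with the highest mean values. Of all genes outside that part, 61.3% rose in controls. In Cebpa-deleted cells 39 fell and 5 rose, against 63.1% of all genes (36.2% lower, 26.9% higher), with the largest falls in Hspa1a (-1.92, SE 0.34), Dnajb1 (-1.14, SE 0.20) and Dnaja1 (-1.01, SE 0.12), then Dnajc19, Hspe1 and Hspa2. Its rises were Dnajb8, Dnajc5g, Dnajc5b, Dnajc27 and Dnajb5, by 0.29 to 0.82. Apart from Dnajb5, these too lie outside the 60% with the highest mean values, where 52.4% of all genes rose in Cebpa-deleted cells. Of the 13 stress-raised members, 10 fell and 0 rose in each genotype. All of them but Dnaja4 lie in the highest of the 10 bins by mean value, where 82.9% of all genes fell in controls. In Cebpa-deleted cells 54.9% fell among the 60% of genes with the highest mean values.

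The array range narrowed over the same step, from 3.01 to 2.25 in controls, and 10 of 11 type II cell markers fell in each genotype, and their part in these falls was not tested. The lowest gene value on an array was 2.18 to 2.30 at 0 h and 2.74 to 2.89 at 2 and 24 h. The highest was 14.53 to 14.62 at 0 h and 13.70 to 13.88 at 2 and 24 h. What set the 0 h arrays apart in this way was not tested. Whether the arrays of the 3 times were processed together is not stated in the labels, so time and array batch cannot be told apart. Among the genes of high mean value, 36 of 55 members fell in controls (65.5%) beside 59.6% of all genes there. After a second quantile normalization, which gives all arrays 1 distribution, 12 of 69 fell in controls and 13 rose, against 20.6% and 21.3% of all genes, and in Cebpa-deleted cells 16 fell and 9 rose, against 19.4% and 19.3%. Hspa9, called as a fall in both genotypes, was then called as a rise in both (0.34 in controls and 0.30 in Cebpa-deleted cells), and Hspa4 was called as a rise in controls (0.19).

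From 0 to 24 h, 42 members fell and 5 rose in controls, against 59.9% of all genes called (34.6% lower, 25.3% higher), and 46 fell and 12 rose in Cebpa-deleted cells, against 77.6% (41.5% lower, 36% higher). After the second quantile normalization 19 fell and 7 rose in controls, against 20.3% and 20.4% of all genes, and 24 fell and 12 rose in Cebpa-deleted cells, against 30.5% and 31.1%. There Dnaja2, Dnajc7 and Hspa4 turned from called falls to called rises in Cebpa-deleted cells. The largest falls in controls were those of Hspa2 (-1.13, SE 0.12), Hspa13 (-1.05, SE 0.13), Dnajc3, Hsp90b1 (-0.98, SE 0.092), Dnajb11 (-0.95, SE 0.12) and Dnaja4 (-0.94, SE 0.098), of which 4 belong to the endoplasmic reticulum. Its rises were Dnajb8 (0.90, SE 0.10), Dnajc5 (0.68, SE 0.085), Dnajc27, Dnajc5b and Hspa9 (0.31, SE 0.09). Dnajb8, Dnajc27 and Dnajc5b lie outside the 60% of genes with the highest mean values, where 47.9% of all genes rose in controls. In Cebpa-deleted cells the falls were led by Hspa1a (-2.20, SE 0.34), Hspa13 (-1.75, SE 0.13), Dnajb1 (-1.48, SE 0.20), Hspb1 (-1.33, SE 0.15), Dnajc3 (-1.16, SE 0.093) and Dnaja1 (-1.13, SE 0.12). The rises were led by Dnajb8 (1.06, SE 0.10), Dnajc5g, Dnajb6, Dnajc6, Hspa1l and Dnajc27. For Dnajb6, 4 features shared with Gm4247 were called as falls there, as given further on. Apart from Dnajb6, these leading rises lie outside the 60% with the highest mean values, where 69.1% of all genes rose in Cebpa-deleted cells. The difference between these changes was called for 9 of 69 members, against 14.3% of all genes (8.88% negative, 5.46% positive), with 7 more negative, led by Hspb1 (-0.94, SE 0.21), Dnajb1 (-0.91, SE 0.28) and Hspa13 (-0.69, SE 0.19), and 2 more positive, Dnajc5g and Dnajb6. After the second quantile normalization 1 was negative, Hspb1, and 3 were positive, against 3.12% and 2.96% of all genes, so that balance turned as well. Leaving out single arrays gave 0 to 19 calls, none without Cebpa-deleted 24 h replicate 2 and 19 without replicate 4. Of all 19938 genes, 278 were called without replicate 2 and 5828 without replicate 4.

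Genes that work with these chaperones were counted from lists outside the family. Their counts stand beside 26.4% of all genes lower and 24.3% higher at 24 h, with 66% lower and 2.66% higher in the highest of the 10 bins. Genes of these lists need not lie in that bin. From 2 to 24 h the shares of all genes were 7.97% rising and 4.46% falling in controls and 11.8% and 19.6% in Cebpa-deleted cells, where 52.5% fell in the highest bin. Of 23 cofactors of HSP70 and HSP90, 13 were lower (56.5%) and 0 higher in Cebpa-deleted cells at 24 h, with Bag3 (-0.58, SE 0.11), the partner of Hspb8, Chordc1 (-0.56, SE 0.16), an HSP90 co-chaperone, and Bag4 (-0.47, SE 0.13) furthest. From 2 to 24 h 3 rose and 2 fell in controls, where Fkbp5, an HSP90-bound immunophilin raised by glucocorticoids, rose (0.70, SE 0.22). Stip1, which links HSP70 to HSP90, and Fkbp4, another HSP90-bound immunophilin, fell (-0.61, SE 0.11 and -0.61, SE 0.12). In Cebpa-deleted cells 11 fell over that interval (47.8%), led by Ahsa2 (-0.80, SE 0.13), Fkbp4 (-0.74, SE 0.12) and Chordc1 (-0.71, SE 0.16).

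Of 14 subunits of the TRiC chaperonin and prefoldin, which fold actin and tubulin, 10 were lower at 24 h (71.4%), led by Pfdn5 (-0.47, SE 0.14), Cct5 (-0.35, SE 0.10) and Tcp1 (-0.33, SE 0.091); from 2 to 24 h 0 were called in controls and 8 fell in Cebpa-deleted cells (57.1%), with Cct6a (-0.45, SE 0.11), Vbp1 (-0.44, SE 0.13) and Cct2 (-0.38, SE 0.086) in front. Of 10 mitochondrial chaperones and proteases, 8 were lower at 24 h (80%), led by Trap1 (-0.87, SE 0.14), the mitochondrial HSP90, Clpb (-0.62, SE 0.12), a disaggregase, and Lonp1 (-0.57, SE 0.14), a matrix protease. In controls 2 of the 10 rose from 2 to 24 h, Grpel2 (0.70, SE 0.095), an exchange factor for mortalin, and Timm44 (0.32, SE 0.10), which tethers it to the import channel. In Cebpa-deleted cells Grpel2 rose (0.30, SE 0.095) and Clpb (-0.54, SE 0.12) and Trap1 (-0.41, SE 0.14) fell.

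Of 11 other chaperones of the endoplasmic reticulum, 7 were lower at 24 h (63.6%), led by Dnajb9 (-0.78, SE 0.11), Pdia6 (-0.40, SE 0.12) and Hspa5 (-0.37, SE 0.10), the gene of BiP. From 2 to 24 h 5 fell in controls (45.5%) and 10 in Cebpa-deleted cells (90.9%), where Pdia6 (-1.02, SE 0.12), Hyou1 (-0.83, SE 0.11) and Pdia4 (-0.77, SE 0.12) fell most; in controls these read -0.75, -0.56 and -0.69. The medians of the 4 lists at 24 h were -0.33, -0.27, -0.32 and -0.33 in the order given, next to -0.36 for all genes in the highest of the 10 bins.

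The calls by genotype depend on the scale of the values. After a second quantile normalization, 13 members were lower and 11 higher at 24 h, against 17.1% and 16.5% of all genes. Called on both scales were 12 members: Hspa1a, Hspb1, Hspb8, Hspb6, Hspa13, Dnaja3, Dnajb14, Dnajc1, Dnajc11 and Dnajc14 as lower, and Dnajb6 and Dnajb8 as higher. Hspa1a differed by -1.04 (adjusted p = 0.0275), Hspb1 by -0.73 (adjusted p = 0.00091), Hspb8 by -0.47 (adjusted p = 0.00735) and Hspa13 by -0.41 (adjusted p = 0.00558) on that scale. Dnajb1, at -0.44, missed the threshold (adjusted p = 0.0807). Of the 12 members called only on that scale, 9 were higher in Cebpa-deleted cells, among them Hsp90b1 (0.32), the HSP110-like Hspa4 (0.34) and Dnaja2 (0.40), and 3 were lower. Leaving out the 2 Cebpa-deleted 24 h arrays of narrowest range, replicates 1 and 2, was a choice made after the data were seen. It left only replicate 4 in that group, so no calls from that fit are given. Hspa1a then differed by -0.97 and Hspb1 by -0.71.

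**Figure D4:**
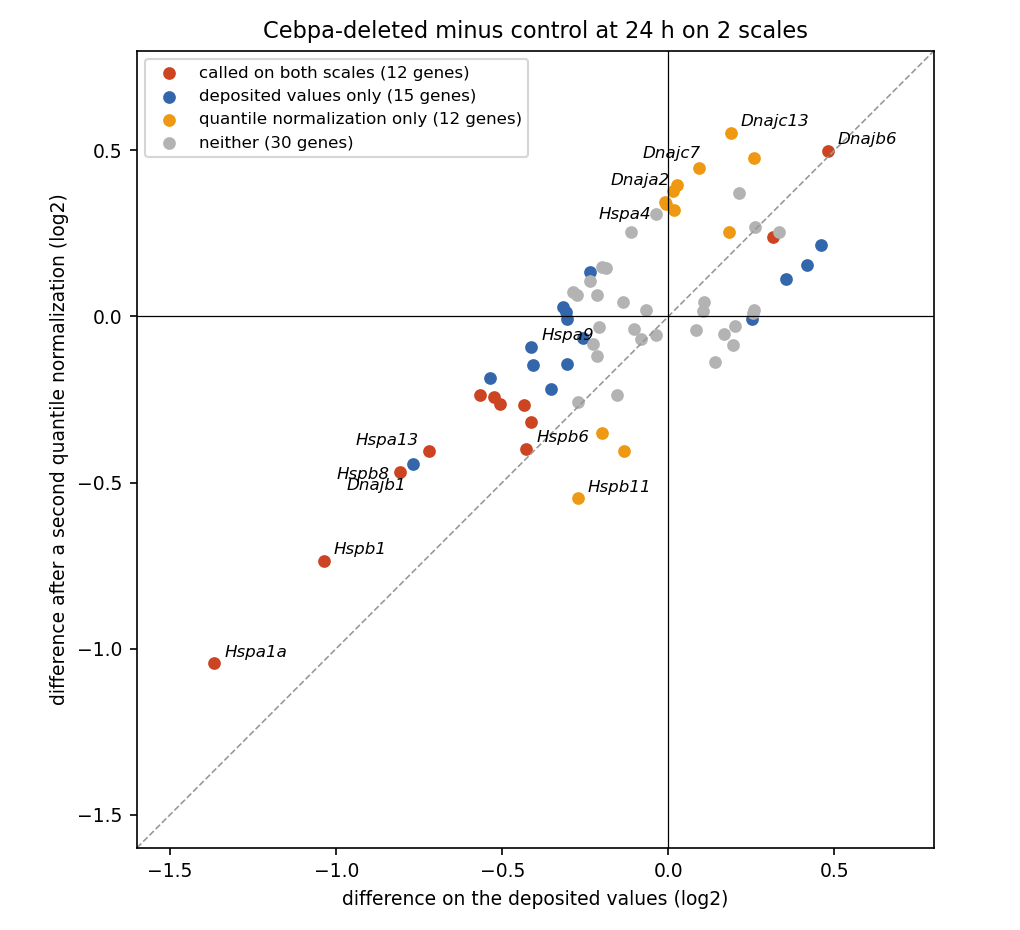
Genotype difference at 24 h on the deposited values (horizontal axis, log2) and after a second quantile normalization (vertical axis, log2) for the 69 genes, coloured by the scale on which they were called at an adjusted p below 0.05, with a dashed line of equal difference. Most points lie above the line, and Hspa1a, Hspb1, Hspb8 and Hspa13 stay below 0 on both axes.

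Several members were measured by more than 1 feature, and for Dnajc13 the features disagreed. The 15 features of Dnajc13, tested on their own in a fit over all features, gave 13 negative and 2 positive genotype differences at 24 h, with 8 called as lower and 0 as higher, while the feature of highest mean, used above, was at 0.19. From 2 to 24 h all 15 were positive in controls, 12 of them called, and in Cebpa-deleted cells 2 were called as rises. The mean of the 15 features was -0.31 for deleted against control cells at 24 h (adjusted p = 0.00713), the opposite sign.

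**Figure D5:**
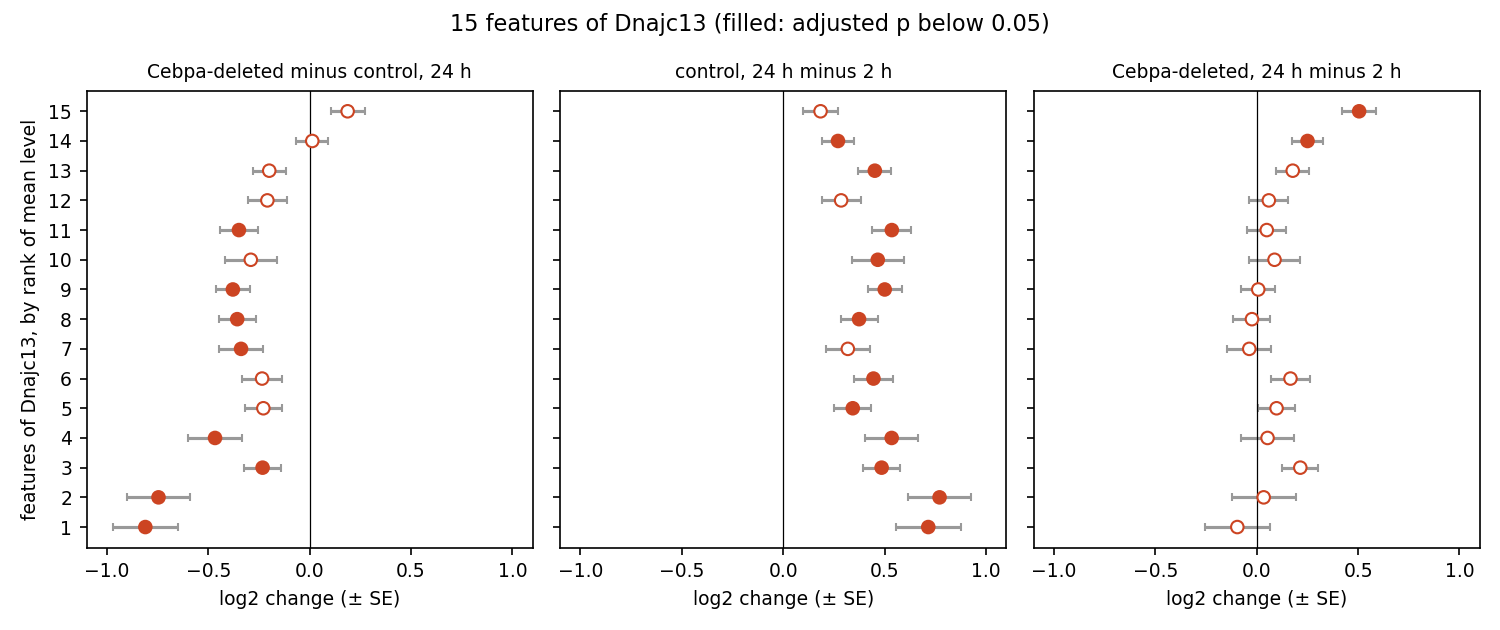
Log2 change ± SE (horizontal axes) of each of the 15 features of Dnajc13, ordered by mean value (vertical axis), for Cebpa-deleted minus control cells at 24 h and for 24 h minus 2 h in each genotype, with filled points at an adjusted p below 0.05. The feature of highest mean stands to the right of all others in the first panel and has the smallest change in the second.

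Features of other members differed too. Dnaja1 had a second feature at -0.71 (adjusted p = 0.00339) beside -0.24, and a feature shared with Mir207 at 0.49 (adjusted p = 0.00765), so its features were called in opposite directions. Hspd1 had a second feature at -0.44 (adjusted p = 0.0132) beside -0.11. Features that name Hspa8 together with the small nucleolar RNAs Snord14c and Snord14d, which lie within it, gave -0.81 and -0.77, both called. At 0 h both of these features already stood at -0.94, not called. Their interaction from 0 to 24 h was 0.13 and 0.17, not called either. For Dnajb6, 4 features shared with Gm4247 gave -0.13 to -0.092 and were not called, beside 0.48 for its own feature. From 0 to 24 h in Cebpa-deleted cells these 4 were called as falls (-0.92 to -0.79), beside a rise of 0.55 for its own feature. Their interaction from 0 to 24 h was -0.15 to -0.11 with 0 called, beside 0.64. For Dnajb14, 2 features shared with Pin4 gave -0.046 and -0.020 and were not called, beside -0.41 for its own feature. The 3 Hsp90aa1, 3 Hspa8 and 2 Hspe1 features each gave negative differences with 0 called, and both Hspb1 features gave -1.04.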

How the data were processed

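The authors deposited 1 table of log2 expression values for 18 arrays, made by RMA per the submitters' processing notes, which background-corrects, quantile-normalizes and summarises probes; its version, and which arrays were normalized together, are not given in the sources used here. GEO's platform annotation gave 1 gene symbol to 21789 of 35557 features, several to 1621 and none to 12147. For each of 19938 genes the feature of highest mean over the arrays was used. The number of arrays limits the precision.

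Differences were tested with limma 3.58.1 in R 4.3.3 (lmFit and eBayes, 1 mean per group, 18 arrays), adjusted by Benjamini-Hochberg over all 19938 genes, two-sided, and called at an adjusted p below 0.05. Every adjusted p in the text comes from that fit or an alternative of it. The members and the gene lists were chosen with earlier results of these data known. Values per array are given for the heat shock factor, main stress genes and up to 12 further members with the largest called genotype differences or changes from 2 to 24 h, and otherwise the 6 largest called changes each way are named; Dnajc5, Hspb6, Hspb7 and the members described by feature or mean value were added after their values were seen. Same-numbered arrays of the 2 genotypes had correlations of deviations between -0.24 and 0.058, so replicate numbers were not used as pairs. Alternatives were a second quantile normalization, centring on medians, the array range as a covariate, only the groups compared, a replicate block, the mean of all features, the upper 60% of genes, eBayes with trend and robust options, and each array left out. Promoter letters were searched in RefSeq sequences of GRCm38.p6.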

Additional observations from a re-analysis of the deposited data

Results flagged for a closer look

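The change over time differed between the genotypes, by the interaction in limma with Benjamini-Hochberg adjustment, for 24 combinations of member and interval. Values are the Cebpa-deleted change minus the control change on the log2 scale. From 2 to 24 h the small heat shock protein genes gave -0.88 for Hspb1 (adjusted p = 0.00953), -0.57 for Hspb8, 0.53 for Hspb2 and 0.52 for Hspb7. The HSP70 genes gave -0.52 for Hspa13 and -0.38 for Hspa9. The DnaJ genes gave -0.64 for Dnajc10 (adjusted p = 0.0141), -0.55 for Dnajc11 (adjusted p = 0.0220), -0.525 for Dnajb14, -0.50 for Dnajc1, -0.48 for Dnaja3, -0.47 for Dnajc8, -0.46 for Dnajc14, -0.39 for Dnajc5 and 0.54 for Dnajc5g. From 0 to 24 h the values were -0.94 for Hspb1 (adjusted p = 0.0164), -0.91 for Dnajb1, -0.69 for Hspa13, -0.49 for Dnaja3, -0.45 for Dnajc1, -0.42 for Dnajc5, -0.40 for Hspa9, 0.79 for Dnajc5g and 0.64 for Dnajb6. Hspb1 and Dnajc10 were called from 2 to 24 h in all 12 fits without 1 array, and Hspb1 from 0 to 24 h in 11 of 12. The other combinations were called in 1 to 8 of 12. After a second quantile normalization 2 of the 24 kept their call, Hspb2 from 2 to 24 h and Hspb1 from 0 to 24 h.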

How the results depend on the processing

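Counts of members called are out of 69, and adjusted p-values come from limma. With each array's range added as a covariate, the counts were 2 at 2 h and 0 at 24 h for the genotype difference, 1, 17 and 5 for the control change from 0 to 2 h, the control change from 0 to 24 h and the Cebpa-deleted change from 0 to 2 h, and 0 for the Cebpa-deleted changes from 0 to 24 h and 2 to 24 h and for the interactions from 0 to 24 h and 2 to 24 h. In the same order, this fit called 999, 4, 940, 3369, 1195, 39, 115, 1 and 0 of all 19938 genes. Range and group are tied in this design, since the ranges of the 2 genotypes at 24 h did not overlap. After a second quantile normalization the counts were 25 and 26 for the control changes from 0 to 2 h and 0 to 24 h, 25, 36 and 12 for the Cebpa-deleted changes from 0 to 2 h, 0 to 24 h and 2 to 24 h, and 4 for each of the interactions to 24 h. Counts are not given for the fit that kept replicate 4 as the only Cebpa-deleted 24 h array. A group of 1 array does not show its own spread. That fit was chosen after the data were seen, and its differences for Hspa1a and Hspb1 are given above. Fits to only the arrays of the groups compared gave 7 for the Cebpa-deleted change from 2 to 24 h. They gave 8 for the interaction over that interval. Leaving out 1 array gave 0 to 1 for the genotype difference at 0 h and 15 to 37 at 24 h. It gave 6 to 8 and 8 to 29 for the control and Cebpa-deleted changes from 2 to 24 h. For the interactions from 0 to 24 h and 2 to 24 h it gave 0 to 19 and 2 to 28. All genes called were 32 to 139 and 6128 to 10988 for those genotype differences. For the changes they were 1398 to 2143 and 2922 to 8093, and for the interactions 278 to 5828 and 2563 to 8608.

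With the replicate number as a block the count was 21 for the genotype difference at 24 h. For the changes from 2 to 24 h the counts were 10 in controls and 14 in Cebpa-deleted cells. They were 2 and 4 for the interactions from 0 to 24 h and 2 to 24 h. In the same order, 7918, 2041, 4101, 775 and 3638 of all genes were called. The replicate numbers do not pair the samples.

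With the range as a covariate the sign turned, with no call, for the 24 h genotype differences of Dnajb12 (0.030), Dnajb14 (0.072), Dnajb8 (-0.023), Dnajc11 (0.146), Dnajc12 (0.026), Dnajc16 (0.089), Dnajc3 (0.132) and Dnajc9 (0.147), the control change of Dnajb1 from 0 to 2 h (0.037), the Cebpa-deleted changes of Dnajc6 from 0 to 24 h (-0.25) and Dnajc9 from 2 to 24 h (0.019), and the interactions from 2 to 24 h of Dnaja3 (0.101), Dnajb14 (0.059), Dnajc11 (0.147), Dnajc14 (0.140), Dnajc8 (0.026), Hspa13 (0.267) and Hspb8 (0.012). After the second quantile normalization members called as falls were called as rises for Hspa4 (0.19) and Hspa9 (0.34) in controls and Hspa9 (0.30) in Cebpa-deleted cells from 0 to 2 h, and for Dnaja2 (0.32), Dnajc7 (0.50) and Hspa4 (0.34) in Cebpa-deleted cells from 0 to 24 h. Among the 185 values counted below the sign turned, with no call, for the 24 h genotype differences of Dnajc22 (-0.0089), Dnajc3 (0.133), Dnajc5 (0.028) and Dnajc9 (0.015), the control changes of Dnajb7 (-0.031) and Dnajc22 (-0.053) from 0 to 2 h and the Cebpa-deleted change of Hspa4 from 2 to 24 h (0.016). Over the mean of all features Dnajc13 was at -0.31. The cause was not tested. Of 185 values of named members, 69 kept direction and side of the threshold with the range covariate (93 lost only the call and 18 turned). The same held for 118 after quantile normalization, 172 after centring and 182 with the trend and robust options.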
